A study of Mus musculus with 18 samples.

Results

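The bulk liver comparison covered 6 of the 18 libraries of the series. All 6 came from female BALB/cJ mice aged 6 to 8 weeks that were lethally irradiated, received 10000000 bone marrow cells, and were sampled on day 7. In the BM group (3 libraries) the graft was marrow alone, and in the BMT group (3 libraries) 1000000 T cells were added to the same marrow dose. Irradiation and marrow were therefore shared by both groups, and no liver from an unirradiated or untransplanted mouse was analysed here. Members were the libraries whose names carry the liver day 7 code, and all 14134 genes that passed a filter on low counts were tested. The labels and notes used here do not name the donors' strain. Nor do they call the replicates separate animals, so the p-values measure the spread between these libraries, which may be partly technical.

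The liver is built mostly of hepatocytes, which secrete the proteins of plasma, make and store glucose and fat, detoxify ammonia and foreign compounds, and form bile. During inflammation, cytokines of the interleukin 6 and interleukin 1 families drive hepatocytes to secrete acute phase proteins, and the enzymes of drug metabolism are commonly reduced. Donor T cells that recognize the recipient cause graft-versus-host disease, of which the liver is a classical target. In whole tissue, fewer cells of a type and less RNA per cell cannot be told apart.

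Total counts ran from 21196528 to 24685933 per library, so that 3 counts, the floor used here for detection, stood at 0.122 to 0.142 counts per 1000000 counts (CPM) of the plain totals. All other CPM values use totals scaled by trimmed mean of M-values factors. Counting error is the only error that this floor covers. Transcripts of the mitochondrial chromosome took 4.22 to 5.26% of counts in BM and 2.77 to 3.08% in BMT, and the 50 most counted genes took 32.1 to 39.1% and 42.6 to 45.8%. The first principal component, with 60.8% of the variance, separated the groups. The second, with 21.2%, placed BM replicate 1 at 37.9 and BM replicate 3 at -50, farther apart than any BMT libraries. Of the 7 hepatocyte markers, Alb (albumin), Apob (the protein of low density lipoproteins), Cps1 (the entry enzyme of the urea cycle) and Hnf4a (a hepatocyte transcription factor) were not called, while Apoa1 (the protein of high density lipoproteins), Serpina1c (an alpha-1-antitrypsin) and Fgb (fibrinogen beta) were called higher. Of 15 exocrine pancreas genes, 11 had no count in any of the 6 libraries.

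A gene was called when edgeR's quasi-likelihood test gave a Benjamini-Hochberg adjusted p under 0.05 over all 14134 genes, and fold changes are BMT over BM. Each ± is a standard error of a log2 fold change with n = 3 per group. By that rule 1528 genes (10.8% of those tested) were called, 1055 higher in BMT (7.46%) and 473 lower (3.35%), and in every called gene the groups did not overlap. The lists described below are read against these shares and against the median log2 fold change of all genes, -0.02. The size of the call set depended on single libraries. Rises numbered 519 without BM replicate 2, 554 without BMT replicate 1 and 459 without BMT replicate 2. Falls numbered 162, 178 and 110 in the same order, 232 without BMT replicate 3 and 1061 without BM replicate 3. For that reason each list is also given by its recurrent calls, those made again in all 6 fits that left out 1 library, which were 411 rises (2.91%) and 97 falls (0.686%) over all genes. Scaling by total counts alone, which shifted the median of all genes by -0.18, turned the split to 812 rises and 1183 falls, so that small falls depend on the scaling.

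Rises and falls lay at different levels of expression. The genes that rose had a median level of 4.28 CPM and a median log2 fold change of 1.70, against 36.1 CPM and -0.89 for the genes that fell. Of the rises 836 exceeded 2-fold and 84 exceeded 16-fold, compared with 197 and 14 of the falls. Among the 116 genes above a mean of 1000 CPM, 27 rose and 11 fell, 12 and 1 of them recurrently. Nearly all of the 27 encode secreted proteins, of which leukocytes also make Lcn2 and Saa3. The 11 included the enzymes of drug and alcohol metabolism Cyp2a5, Cyp2c29, Cyp3a11, Gstm1, Gsta3 and Adh1 and the fatty acid desaturase Scd1. These names were chosen after the values were seen.

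**Figure D1:**
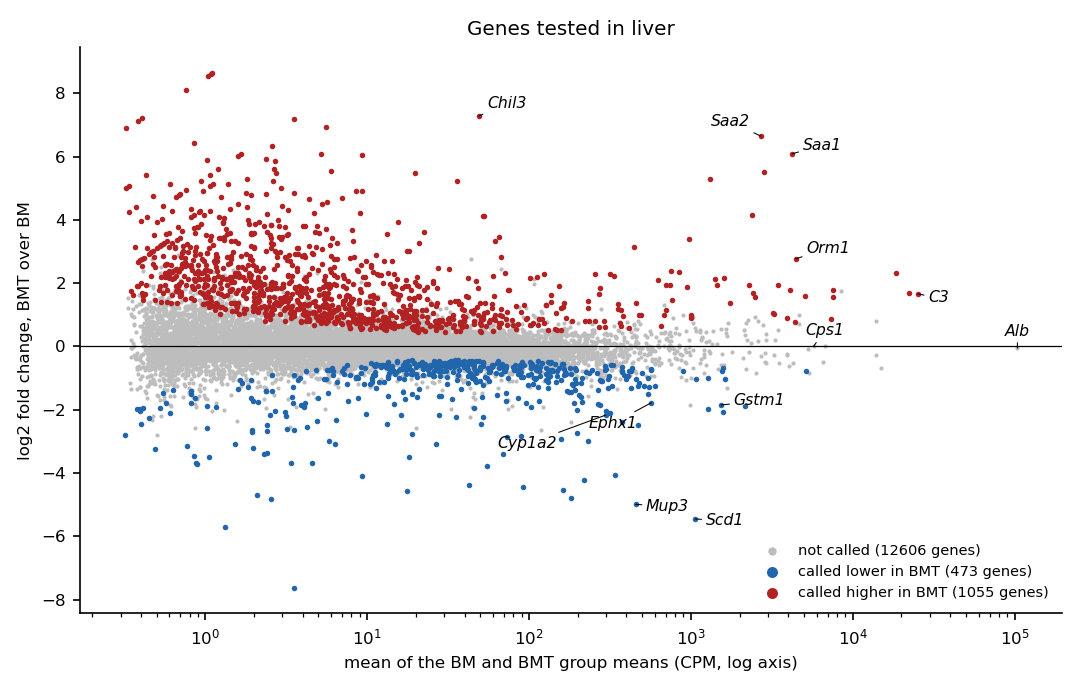
Log2 fold change (BMT over BM) of the 14134 genes tested against the mean of the group means in CPM on a log axis, with called genes in colour and 12 genes named. Above 1000 CPM 27 genes rose and 11 fell, and Alb, at the far right, had a log2 fold change of -0.05.

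Most genes for acute phase proteins, which the liver secretes into blood in inflammation, were higher in BMT. Of 31 listed genes 30 passed the filter, and of these 25 rose and none fell, 19 of the rises recurred, and the median log2 fold change was 2.17. The summed level of the list went from 24747, 34124 and 40803 CPM in the BM livers to 158100, 146174 and 136547 CPM in the BMT livers, groups that did not overlap. Saa2, a serum amyloid A apolipoprotein (ENSMUSG00000057465.5, chr7:46751790-46754313 on GRCm38), measured 16.1, 49.1 and 94.6 CPM in BM and 5076, 4383 and 6550 CPM in BMT. The BMT values stood far above the BM values (6.65 ± 0.69, adjusted p = 0.00222). Lrg1, a leucine-rich plasma glycoprotein induced in inflammation (ENSMUSG00000037095.7, chr17:56119680-56121946 on GRCm38), measured 124, 199 and 178 CPM in BM and 1475, 2092 and 1749 CPM in BMT. All BMT values lay above all BM values, and the log2 fold change was 3.41 ± 0.25 (adjusted p = 0.00122). The metal-binding metallothionein Mt1 measured 318, 276 and 240 CPM in BM and 1429, 1625 and 1186 CPM in BMT (2.35 ± 0.20, adjusted p = 0.00153). Saa4, the serum amyloid gene regarded as constitutive, measured 301, 310 and 304 CPM in BM and 979, 1335 and 1219 CPM in BMT, with BM libraries nearly equal and every BMT library higher (1.95 ± 0.17, adjusted p = 0.00174). Cd14, a co-receptor for bacterial lipopolysaccharide that myeloid cells also express, measured 3.7, 3.35 and 4.71 CPM in BM and 34.2, 53.8 and 26.3 CPM in BMT (3.28 ± 0.29, adjusted p = 0.00174). Acute phase genes hold near-identical copies (Saa1 and Saa2, Orm1 to Orm3, the Serpina3 cluster), and the labels and notes used here do not say how reads shared by copies were counted.

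Complement, a cascade of plasma proteins that tags and lyses microbes, showed the same direction with smaller changes. Of 28 tested genes 9 rose and 1 fell, 5 and 1 of them recurrently, with a median log2 fold change of 0.59. Rises numbered 5 without BM replicate 2 and 15 without BM replicate 3, and 15 with DESeq2. C3, the central component (ENSMUSG00000024164.15, chr17:57203970-57228136 on GRCm38), measured 11806, 12847 and 11671 CPM in BM and 42015, 38526 and 34610 CPM in BMT. The BM livers were close to each other and all below the BMT livers (1.66 ± 0.24, adjusted p = 0.0063). C4bp, an inhibitor of the cascade, measured 435, 439 and 430 CPM in BM and 1015, 1036 and 870 CPM in BMT (1.16 ± 0.15, adjusted p = 0.00402). The terminal components divided: C6 and C8b rose, by 1.33 ± 0.17 and 1.06 ± 0.14 on the log2 scale (adjusted p = 0.0042 and 0.00451), whereas C8g fell. C8b measured 83.8, 107 and 95.1 CPM in BM and 193, 211 and 191 CPM in BMT. C8g, which encodes another chain of the same component and was the 1 complement gene called lower, measured 300, 257 and 217 CPM in BM and 104, 75.2 and 106 CPM in BMT (-1.44 ± 0.19, adjusted p = 0.00464).

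Coagulation genes followed in part. Of 37 tested 8 rose and 1 fell, but only the rise of Cpb2, a carboxypeptidase that slows fibrinolysis, recurred. Cpb2 measured 327, 353 and 281 CPM in BM and 756, 587 and 586 CPM in BMT, without overlap (1.00 ± 0.17, adjusted p = 0.0114). Rises numbered 1 without BM replicate 2 or BMT replicate 2 and 3 without BMT replicate 1, and 13 with DESeq2. The fibrinogen chains Fga, Fgb and Fgg were each called higher, with log2 fold changes of 1.78 ± 0.32, 1.56 ± 0.30 and 1.58 ± 0.32, and each lost its call without BM replicate 2 or BMT replicate 2 (Fgb and Fgg also without BMT replicate 1). In the fit of all 18 libraries none of the 3 was called (adjusted p = 0.109, 0.184 and 0.133). F2, which encodes prothrombin, measured 2390, 2093 and 1784 CPM in BM and 2602, 2309 and 2214 CPM in BMT, with overlapping groups (0.19 ± 0.19, adjusted p = 0.579).

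Carrier proteins of plasma moved both ways, with 5 of 24 called higher and 4 lower and 1 recurrent call on each side. Rises numbered 1 with BM replicate 2, BMT replicate 1 or BMT replicate 2 left out and 3 without BM replicate 1, and 1 in the fit of all 18 libraries. Falls numbered 1 without BMT replicate 2 and 2 without BM replicate 2 or BMT replicate 3. Fetub, a fetuin that inhibits proteases, measured 325, 319 and 224 CPM in BM and 1288, 1109 and 933 CPM in BMT and did not overlap (1.94 ± 0.21, adjusted p = 0.00259). Serpina6, the corticosteroid-binding globulin (ENSMUSG00000060807.7, chr12:103646630-103657212 on GRCm38), measured 589, 636 and 714 CPM in BM and 21.4, 22.9 and 71.4 CPM in BMT. All BMT values were far below all BM values (-4.07 ± 0.50, adjusted p = 0.00344). Alb measured 143271, 100736 and 73849 CPM in BM and 119536, 92327 and 94646 CPM in BMT, with the widest spread among the BM livers and overlapping groups (-0.05 ± 0.36, adjusted p = 0.945). Apob likewise overlapped (6823, 5571 and 3820 CPM in BM and 5641, 5154 and 4607 CPM in BMT; -0.07 ± 0.26, adjusted p = 0.885). Of 30 genes of lipoproteins and their handling 6 rose and 3 fell, 1 and 1 recurrently. Rises came to 1 without BMT replicate 2, 2 without BMT replicate 1 and 3 without BM replicate 2 or BMT replicate 3. Falls came to 1 without BMT replicate 2. The recurrent rise was Lrp1, a receptor that clears remnants, at 415, 500 and 452 CPM in BM and 821, 976 and 915 CPM in BMT (0.99 ± 0.16, adjusted p = 0.00829). The recurrent fall was Lipc, hepatic lipase, at 320, 279 and 197 CPM in BM and 111, 95 and 85.5 CPM in BMT (-1.45 ± 0.21, adjusted p = 0.00581). Apoa1 measured 5002, 5156 and 5312 CPM in BM and 8777, 10406 and 9313 CPM in BMT, a rise (0.88 ± 0.20, adjusted p = 0.0294) that kept its call when BM replicate 3 was left out and lost it without any other library, on 1 lane alone and in the fit of all 18 libraries.

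**Figure D2:**
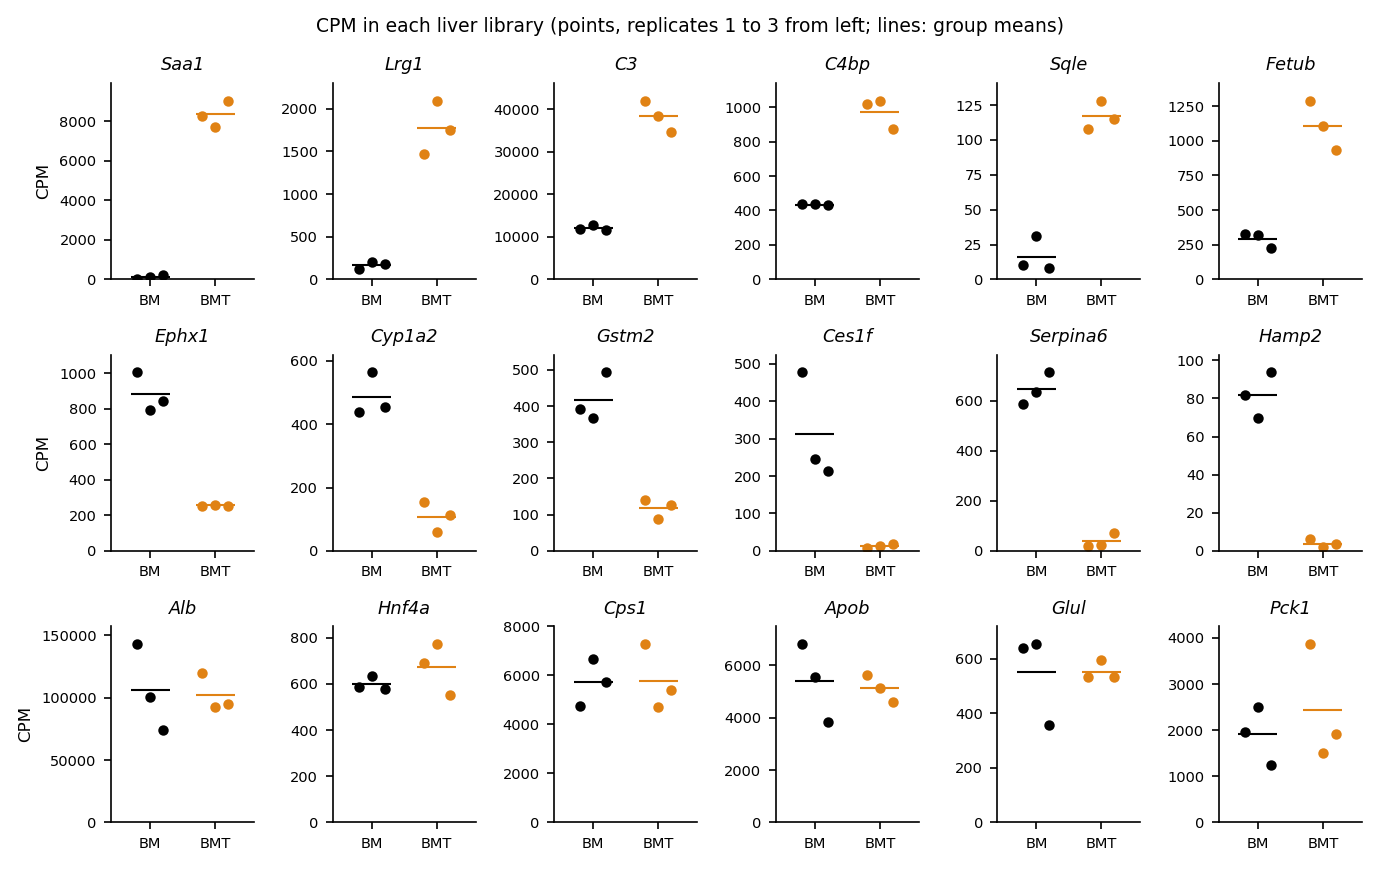
CPM of 18 genes in each of the 6 liver libraries (linear axes from 0, points for libraries, lines for group means). Acute phase genes, complement genes, Sqle and Fetub in the upper row were higher in every BMT library, the enzymes, the carrier Serpina6 and the hepcidin Hamp2 in the middle row were lower in every BMT library, and the 6 genes of the bottom row overlapped.

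The enzymes that oxidize, conjugate and hydrolyse drugs and endogenous lipids fell in large numbers. The 3 lists held 125 genes that passed the filter, of which 51 fell and 4 rose, 24 and 1 of them recurrently, with a median log2 fold change of -0.77. Of 80 listed cytochrome P450 genes of families 1 to 4, which insert oxygen into their substrates, 57 passed the filter, of which 18 fell and 2 rose, 7 of the falls recurrently. The falls numbered 7 without BMT replicate 2 and 10 without BM replicate 2. Cyp2a22 measured 345, 249 and 238 CPM in BM and 19.1, 42.2 and 48.5 CPM in BMT, with every BMT value far below every BM value (-2.92 ± 0.35, adjusted p = 0.00326). Cyp1a2, the caffeine-oxidizing P450 (ENSMUSG00000032310.4, chr9:57676937-57683703 on GRCm38), measured 440, 564 and 455 CPM in BM and 153, 59.2 and 113 CPM in BMT, with no overlap (-2.17 ± 0.33, adjusted p = 0.00717). Cyp2c40 and Cyp2c69 lie in the Cyp2c cluster on chromosome 19 and share long stretches of sequence with their neighbours, so that their single-gene counts are uncertain. Cyp2c40 measured 236, 216 and 74.6 CPM in BM and 3.47, 7.02 and 13.8 CPM in BMT (-4.44 ± 0.62, adjusted p = 0.00539). Cyp2c69 measured 51.7, 39 and 11 CPM in BM and 1.39, 1.75 and 1.14 CPM in BMT (-4.56 ± 0.58, adjusted p = 0.00391), and neither overlapped. Cyp2c23, an epoxygenase of arachidonic acid, measured 30.4, 20.1 and 16.5 CPM in BM and 2.36, 4.41 and 5.55 CPM in BMT (-2.44 ± 0.34, adjusted p = 0.00559). Cyp3a11, the main mouse counterpart of the human drug-metabolizing CYP3A enzymes, measured 5357, 2694 and 2182 CPM in BM and 1512, 647 and 608 CPM in BMT. BM replicate 1 stood above the other BM livers, and the call (-1.89 ± 0.47, adjusted p = 0.0413) was kept without BM replicate 3 or BMT replicate 1 and lost without any of the other 4 libraries, on 1 lane alone and in the fit of all 18 libraries. Cyp2e1, which oxidizes ethanol, overlapped (5406, 5177 and 1850 CPM in BM and 3749, 3084 and 1764 CPM in BMT; -0.53 ± 0.44, adjusted p = 0.49).

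The list of conjugation enzymes, which attach glutathione, glucuronic acid or sulfate, also holds the epoxide hydrolase Ephx1, which does not. Of its 54 tested members (72 were listed) 26 fell, 13 recurrently, and 1 rose, with a median log2 fold change of -0.75. By library left out, falls came to 14 without BM replicate 2 or BMT replicate 2. Ephx1, the microsomal epoxide hydrolase (ENSMUSG00000038776.13, chr1:180976210-181020904 on GRCm38), measured 1004, 795 and 844 CPM in BM and 255, 258 and 255 CPM in BMT. The BMT values were nearly equal and stood well below every BM value (-1.78 ± 0.16, adjusted p = 0.00174). Several glutathione transferases of the mu class were among the falls. Gstm3 measured 96.4, 82.6 and 127 CPM in BM and 8.6, 3.55 and 10.3 CPM in BMT (-3.77 ± 0.38, adjusted p = 0.00212). Gstm2 measured 393, 368 and 493 CPM in BM and 141, 88.4 and 128 CPM in BMT (-1.81 ± 0.22, adjusted p = 0.00324). Gstm6 measured 138, 133 and 119 CPM in BM and 40.3, 33.4 and 52.7 CPM in BMT (-1.62 ± 0.18, adjusted p = 0.00292); members of this class are close copies. Gsta2, of the alpha class, measured 47.8, 46.4 and 48.4 CPM in BM and 8.97, 4.41 and 3.56 CPM in BMT, with BM values nearly equal (-3.07 ± 0.32, adjusted p = 0.00222). Ugt1a9, a glucuronosyltransferase whose last exons are shared by the whole Ugt1a locus, measured 13.3, 14 and 6.79 CPM in BM and 1.53, 1.33 and 1.14 CPM in BMT, without overlap (-3.08 ± 0.32, adjusted p = 0.00222). The single rise was Sult1e1, the estrogen sulfotransferase, at 0.223, 0.529 and 0.569 CPM in BM and 22, 6.55 and 1.71 CPM in BMT. The gene passed the filter only through BMT, so its rise is a description and no fold is given. Its call was lost on leaving out BM replicate 1, BM replicate 2 or BMT replicate 2.

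Carboxylesterases, which cleave esters of drugs and lipids, fell in 7 of the 14 tested cases (19 were listed), 4 recurrently, with a median of -1.05. Falls numbered 4 with BM replicate 2, BMT replicate 1 or BMT replicate 2 left out. Ces1f, which also hydrolyses triglyceride, measured 477, 246 and 213 CPM in BM and 8.64, 13.2 and 18.7 CPM in BMT (-4.53 ± 0.42, adjusted p = 0.00183). Ces1e measured 236, 130 and 104 CPM in BM and 21.4, 19.9 and 25.4 CPM in BMT (-2.82 ± 0.31, adjusted p = 0.00259). The groups lay apart in both, and also in 2 genes of the Ces2 subfamily. Ces2e measured 419, 344 and 395 CPM in BM and 149, 156 and 144 CPM in BMT (-1.37 ± 0.14, adjusted p = 0.0022). Ces2a measured 500, 428 and 362 CPM in BM and 183, 80.3 and 93.2 CPM in BMT (-1.86 ± 0.32, adjusted p = 0.0111). Ces4a, a member outside these subfamilies, was the 1 called higher, at 0.134, 0.132 and 0 CPM in BM and 1.16, 1.07 and 1.57 CPM in BMT. Every BM value was at or under the floor of 3 counts and the gene passed the filter only through BMT, so no fold is given.

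The stretch of DNA just before a gene's start holds sites for the factors that switch it on, so 250 bases before the start are printed for 2 hepatocyte genes that fell, from RefSeq on GRCm38.p6. Candidates were only the recurrent falls that the naming rule took from the hepatocyte lists. Among these, the 2 shown have the smallest p of those whose 250 bases held a searched motif. The 6 motifs below were searched on both strands, overlaps between motifs included: TTCCNGGAA for STAT proteins, TTGCGCAA for C/EBP proteins, GGNNTTTCC for NF-kB, GTTAATNAT for HNF1, CAAAGTCCA for HNF4 and TTATGTAA for the D-box bound by Dbp and its relatives. Capitals mark the match to the HNF1 motif, on the opposite strand, in Ugt1a9 (chr1:88070529-88070778, plus strand) and the D-box match in Ces1e (chr8:93229620-93229869, minus strand).
Ugt1a9: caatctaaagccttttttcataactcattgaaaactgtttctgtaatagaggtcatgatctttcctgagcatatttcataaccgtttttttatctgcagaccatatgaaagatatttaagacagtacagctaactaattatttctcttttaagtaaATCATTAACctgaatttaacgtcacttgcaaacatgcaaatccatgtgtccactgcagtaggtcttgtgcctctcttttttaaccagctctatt
Ces1e: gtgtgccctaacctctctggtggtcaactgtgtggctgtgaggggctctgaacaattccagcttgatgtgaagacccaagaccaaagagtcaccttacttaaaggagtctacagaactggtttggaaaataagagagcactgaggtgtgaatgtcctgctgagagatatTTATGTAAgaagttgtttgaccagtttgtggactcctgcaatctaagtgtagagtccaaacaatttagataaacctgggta

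The HNF1 match lies 94 to 86 bases, and the D-box match 81 to 74 bases, before the annotated start. In windows of 300 bases (250 before and 50 after the start), the HNF1 motif was held by 8 of 359 called-lower genes with a window (2.23%), 5 of 791 called-higher genes (0.632%), and 69 of 10301 tested genes (0.670%). Its 8 holders among the falls were Bbox1, Il18, Pcbd1, Rassf6, Slc22a29, Sult2a3, Sult2a5 and Ugt1a9. The D-box was held by 7 called-lower genes (1.95%), 5 called-higher genes (0.632%) and 62 tested genes (0.602%), and the HNF4 motif by 6 (1.67%), 8 (1.01%) and 60 (0.582%). The 6 included Cyp2c40, Cyp2c68 and Cyp2c69. Related genes such as these, or Sult2a3 and Sult2a5, count separately in the shares, so their matches are not independent. For the STAT motif the shares were 0.836, 1.14 and 1.34%, for C/EBP 0, 0.379 and 0.282%, and for NF-kB 5.01, 6.19 and 5.98%. Of 23 acute phase genes with a window, 4 held the NF-kB motif (Saa3, Serpina3n, Serpina3g and Steap4), 2 the STAT motif (Steap4 and Agt), 1 the C/EBP motif (Orm2), 1 the HNF1 motif (Cp), and none the HNF4 motif or the D-box. Matches of this kind are a description of letters, not of bound sites.

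Zonation gives hepatocytes near the central vein and near the portal vein different enzymes, with Wnt signals from central endothelium sustaining the pericentral set. Of 35 pericentral genes 12 fell and 2 rose, 6 of the falls recurrently, with a median log2 fold change of -0.43. Falls came to 6 without BMT replicate 2. Of 30 periportal genes 1 fell and 3 rose, none recurrently, with a median of -0.03 that ran from -0.21 to 0.09 over the alternatives. The rises numbered 1 without BMT replicate 2. The falls numbered 0 with BM replicate 2, BMT replicate 1 or BMT replicate 2 left out and 5 without BM replicate 3. The summed pericentral level was 26411, 23661 and 15746 CPM in BM and 11718, 8816 and 8185 CPM in BMT, without overlap. That of the periportal list was 21269, 27621 and 20453 CPM and 31079, 20537 and 23194 CPM, with overlap. Nearly all pericentral falls were drug-metabolizing members. Among the 13 that are also in the 3 enzyme lists 11 fell (median -1.89), and among the other 22 the number that fell was 1 (median -0.12). Glul, glutamine synthetase, which marks hepatocytes next to the central vein, measured 638, 654 and 356 CPM in BM and 531, 595 and 531 CPM in BMT, and its groups overlapped (0.01 ± 0.24, adjusted p = 0.99). The Wnt targets Axin2, Lgr5, Tbx3, Rnf43 and Znrf3 had log2 fold changes of 0.21 ± 0.33, 0.26 ± 0.42, 0.28 ± 0.27, -0.43 ± 0.21 and -0.12 ± 0.23 and were not called. Nor were falls limited to the zonated members, since 40 of the 111 enzymes in neither zonation list fell and 4 rose (median -0.68).

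**Figure D3:**
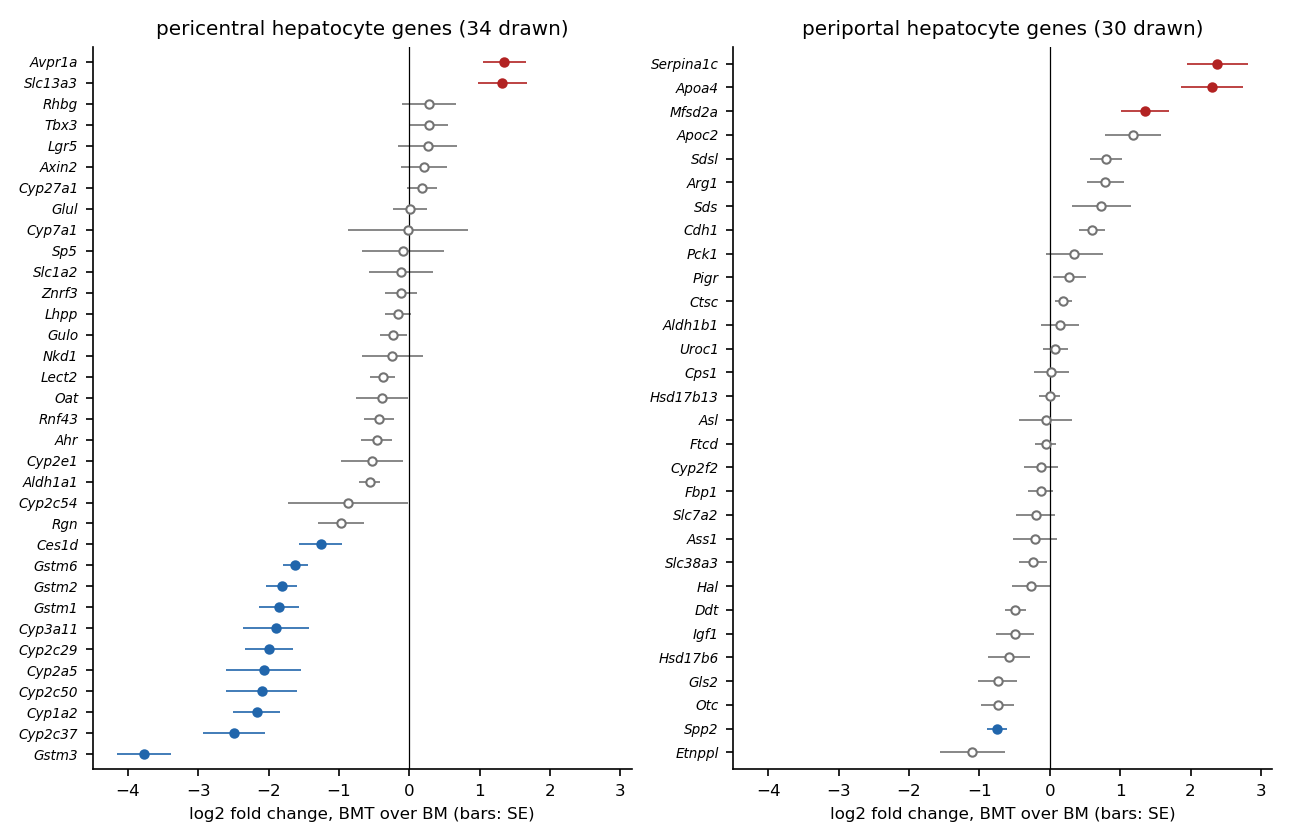
Log2 fold change (BMT over BM) with its standard error for 34 of the 35 tested pericentral genes (left) and the 30 tested periportal genes (right), with filled points for called genes. Of the 12 pericentral falls, the 11 drawn are drug-metabolizing enzymes and the 1 not drawn, a gene not reported here by name, is in none of the enzyme lists, while Glul and the Wnt targets lie near 0.

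Intermediary metabolism changed at fewer points. Of 17 genes of the urea cycle and ammonia handling edgeR called none (1 higher and 2 lower at an unadjusted p under 0.05), DESeq2 called 1 rise and 1 fall, and 2 falls appeared without BM replicate 3. Cps1 measured 4735, 6679 and 5740 CPM in BM and 7278, 4689 and 5380 CPM in BMT (0.02 ± 0.25, adjusted p = 0.977). Ass1, argininosuccinate synthase, measured 2777, 3871 and 2658 CPM in BM and 3643, 1681 and 2701 CPM in BMT (-0.21 ± 0.31, adjusted p = 0.704). Both overlapped. Arg1, arginase, measured 1461, 2404 and 1896 CPM in BM and 4139, 3038 and 2766 CPM in BMT (0.79 ± 0.26, adjusted p = 0.0937). Arg1 was higher in every BMT library than in any BM library without passing the threshold. Amino acid breakdown had 6 falls and no rise among 53 genes by edgeR (4 higher at an unadjusted p under 0.05, 2 rises by DESeq2), with 1 recurrent fall. By library left out, falls came to 1 without BM replicate 2 or BMT replicate 2, 2 without BM replicate 1 or BMT replicate 3, 3 without BMT replicate 1 and 12 without BM replicate 3, and 12 under total counts. Across the left-out libraries, rises numbered 1 without BM replicate 1 or BMT replicate 2. The recurrent fall of this list was Hao2, a peroxisomal hydroxyacid oxidase, at 195, 113 and 69.1 CPM in BM and 6.38, 15.9 and 13.7 CPM in BMT (-3.39 ± 0.47, adjusted p = 0.00523).

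Among 21 genes of gluconeogenesis and glycogen 3 fell, and Ugp2, which makes UDP-glucose for glycogen, was the recurrent one. Falls numbered 1 without BMT replicate 2 and 6 without BM replicate 3. Ugp2 measured 488, 471 and 415 CPM in BM and 224, 145 and 207 CPM in BMT (-1.25 ± 0.19, adjusted p = 0.00752). Gys2, liver glycogen synthase, and Pygl, liver glycogen phosphorylase, were the other two, at -1.07 ± 0.18 and -0.72 ± 0.16. The call of Gys2 was lost without BMT replicate 1 or BMT replicate 2, and that of Pygl held, among the fits with 1 library left out, only without BM replicate 3 or BMT replicate 1. Pygl was also not called on 1 lane alone or in the fit of all 18 libraries. Pck1 and G6pc, the controlling enzymes of glucose output, overlapped between groups (0.35 ± 0.40 and 0.16 ± 0.39, adjusted p = 0.629 and 0.833). Of 26 genes of glycolysis and fructose use 4 rose and 2 fell, 2 rises recurrently. Rises numbered 2 with BM replicate 2, BMT replicate 2 or BMT replicate 3 left out and 9 without BM replicate 3. Falls came to 0 with BM replicate 2, BMT replicate 1, BMT replicate 2 or BMT replicate 3 left out. Pfkfb1, a regulator of glycolytic flux, measured 13.7, 19.6 and 20.4 CPM in BM and 47.2, 49.3 and 45.5 CPM in BMT (1.40 ± 0.17, adjusted p = 0.00319).

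Lipid pathways divided. Cholesterol synthesis had 8 rises and no fall among 23 genes by edgeR (2 lower at an unadjusted p under 0.05, 1 fall by DESeq2), 3 of the rises recurrent, and a median of 0.85. Rises came to 3 without BMT replicate 2 and 4 without BMT replicate 1 or BMT replicate 3, 5 on 1 lane and 14 in the fit of all 18 libraries. Srebf2, the master regulator of the pathway, measured 40.3, 48.5 and 42.5 CPM in BM and 80.5, 95.9 and 86.9 CPM in BMT, without overlap (1.00 ± 0.13, adjusted p = 0.00436). Sqle, squalene epoxidase (ENSMUSG00000022351.14, chr15:59315077-59331192 on GRCm38), measured 10.3, 30.8 and 8.09 CPM in BM and 108, 128 and 115 CPM in BMT (2.84 ± 0.48, adjusted p = 0.0103). Fdps, farnesyl diphosphate synthase, measured 10.8, 12.2 and 11.1 CPM in BM and 21.3, 31.6 and 23.9 CPM in BMT (1.17 ± 0.17, adjusted p = 0.00631).

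Fatty acid synthesis and storage had 4 falls and 2 rises among 35 genes, 1 fall recurrent, with a median of -0.52. The falls numbered 1 without BM replicate 2 or BMT replicate 1, 2 without BM replicate 1 or BMT replicate 2 and 8 without BM replicate 3, 8 under total counts and 9 with DESeq2. The recurrent fall was Me1, malic enzyme, a source of NADPH, at 232, 160 and 138 CPM in BM and 45.8, 53.2 and 60.5 CPM in BMT (-1.73 ± 0.22, adjusted p = 0.00382). Scd1 measured 2677, 1868 and 1700 CPM in BM and 13.8, 3.04 and 126 CPM in BMT, with the BMT livers spread widely at low values, and its call (-5.45 ± 1.26, adjusted p = 0.032) was lost without BM replicate 2 or BMT replicate 1. Fasn, fatty acid synthase, measured 156, 196 and 740 CPM in BM and 129, 152 and 247 CPM in BMT. BM replicate 3 stood above the other 5 libraries, and no call was made (-1.05 ± 0.58, adjusted p = 0.299). Of 43 genes of fatty acid oxidation and ketogenesis 3 fell and 2 rose, with a median of -0.35 and 1 recurrent fall. By library left out, falls came to 1 without BMT replicate 2 and 12 without BM replicate 3, 10 under total counts and 9 with DESeq2. Acaa1b, a peroxisomal thiolase induced by PPAR alpha, measured 720, 297 and 221 CPM in BM and 36.8, 58.5 and 61.4 CPM in BMT (-2.98 ± 0.46, adjusted p = 0.00759). Cpt1a, the gatekeeper of fatty acid entry into mitochondria, measured 270, 351 and 192 CPM in BM and 244, 487 and 344 CPM in BMT, with overlap (0.40 ± 0.30, adjusted p = 0.437).

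Bile acid synthesis had 2 rises and 2 falls among 17 genes, none recurrent. Cyp7a1, the rate-limiting enzyme, was not called (-0.02 ± 0.85, adjusted p = 0.991), and Cyp7b1, of the alternative pathway, fell by 1.65 on the log2 scale (adjusted p = 0.0101, lost without BMT replicate 2). Of 31 transporters of the hepatocyte membrane 5 fell and 2 rose. Falls numbered 1 without BMT replicate 2, 2 with BM replicate 2, BMT replicate 1 or BMT replicate 3 left out and 13 without BM replicate 3, 9 under total counts and 9 with DESeq2. A recurrent rise was that of Slc13a5, the citrate importer, from low levels: 2.59, 2.29 and 0.731 CPM in BM and 12.6, 10.9 and 8.4 CPM in BMT (2.51 ± 0.41, adjusted p = 0.00902).

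Glutathione and oxidant defence had 9 falls and 1 rise among 33 genes, 2 falls and the rise recurrent. Falls came to 2 without BMT replicate 2, 3 without BMT replicate 1, 4 without BMT replicate 3 and 5 without BM replicate 2. Aox1, an aldehyde oxidase, measured 164, 148 and 126 CPM in BM and 58.6, 64.8 and 70.1 CPM in BMT (-1.18 ± 0.15, adjusted p = 0.0037). Ugdh, which makes UDP-glucuronic acid for conjugation, measured 271, 277 and 281 CPM in BM and 129, 83 and 109 CPM in BMT (-1.37 ± 0.18, adjusted p = 0.0042). Both fell without overlap. Gpx3, the glutathione peroxidase of plasma, was the rise, at 3.35, 3.13 and 2.64 CPM in BM and 24.7, 17.2 and 11.9 CPM in BMT (2.56 ± 0.28, adjusted p = 0.00255).

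Iron and haem genes moved both ways, with 7 rises and 3 falls among 34, 3 and 1 recurrent. The rises numbered 3 without BM replicate 2 or BMT replicate 2 and 4 without BMT replicate 1 or BMT replicate 3. The falls numbered 1 with BM replicate 2, BMT replicate 1 or BMT replicate 2 left out. The hepcidin genes, whose peptide blocks iron release, differed. Hamp2 (ENSMUSG00000056978.8, chr7:30922372-30924681 on GRCm38) measured 81.6, 70 and 93.7 CPM in BM and 6.01, 2.01 and 3.66 CPM in BMT and did not overlap (-4.39 ± 0.37, adjusted p = 0.00153). Hamp measured 278, 1000 and 1036 CPM in BM and 1069, 1459 and 751 CPM in BMT, with BM replicate 1 alone low and overlap elsewhere (0.50 ± 0.48, adjusted p = 0.549). Their sequences are close, and the difference between them was not tested. The iron importer Slc11a2 measured 29.5, 25.8 and 30.1 CPM in BM and 58.4, 82.3 and 62.2 CPM in BMT (1.25 ± 0.16, adjusted p = 0.0041). Scara5, a ferritin receptor and 1 of the 3 recurrent rises, measured 0.0446, 0.221 and 0 CPM in BM and 22, 8.26 and 3.09 CPM in BMT. Of its BM values 2 stood at or under the floor of 3 counts, and the BMT values spread widely. The gene passed the filter only through BMT, so its rise is a description and no fold is given. Cd163, the macrophage receptor for haemoglobin bound to haptoglobin, measured 8.84, 13.8 and 8.37 CPM in BM and 27.8, 32.2 and 26.1 CPM in BMT (1.48 ± 0.21, adjusted p = 0.00584).

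Female and male mouse livers differ in a set of genes that follows the pulse pattern of growth hormone, and the mice here were female. Of 37 genes of the growth hormone axis and of sex-biased expression 12 fell and 2 rose, 3 and 2 recurrently. By library left out, falls came to 3 without BMT replicate 2 and 6 without BM replicate 2. Falls included genes known as female-biased (Hao2, Cyp2b9, Cyp2b13, Cyp3a44, Cyp2c69, Cyp2c40, A1bg and Acot3, log2 fold changes -3.39 ± 0.47, -2.04 ± 0.39, -2.85 ± 0.61, -2.73 ± 0.44, -4.56 ± 0.58, -4.44 ± 0.62, -3.68 ± 0.61 and -2.46 ± 0.46) and Cyp7b1, which is known as male-biased. Those of A1bg, Cyp3a44 and Cyp7b1 lost their call without BMT replicate 2, those of Cyp2b13 and Acot3 without BM replicate 2 or BMT replicate 2, and that of Cyp2b9 held only without BM replicate 1 or BM replicate 3. The known bias of the other genes of this paragraph, rises included, is not given here. No shift by sex is therefore read from these names. The growth hormone receptor Ghr and the growth factor carrier Igfals fell by 1.15 and 1.00 on the log2 scale (adjusted p = 0.0224 and 0.0141), calls that both lost on leaving out BM replicate 2, BMT replicate 1 or BMT replicate 2 (Ghr also without BMT replicate 3). Igf1, the growth factor itself, measured 622, 614 and 311 CPM in BM and 422, 328 and 344 CPM in BMT, with BM replicate 3 as low as the BMT livers (-0.50 ± 0.27, adjusted p = 0.295). Mup3, a major urinary protein that carries pheromones, measured 1575, 599 and 479 CPM in BM and 39.9, 11.4 and 31.9 CPM in BMT (-4.99 ± 0.65, adjusted p = 0.0042). Of 22 listed genes of this family of near-identical copies 3 passed the filter, so that the gene behind these counts is uncertain. Egfr, the epidermal growth factor receptor, measured 34.8, 39.4 and 26.2 CPM in BM and 140, 123 and 80.1 CPM in BMT (1.77 ± 0.24, adjusted p = 0.00518). Cyp17a1, a steroid hydroxylase, measured 17.3, 19.8 and 27.7 CPM in BM and 58.9, 52.3 and 53.2 CPM in BMT (1.34 ± 0.18, adjusted p = 0.00523). Both rose without overlap.

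Other large falls lay outside these lists. Car3, a carbonic anhydrase abundant in liver and fat, measured 477, 210 and 365 CPM in BM and 5.59, 14.2 and 18.3 CPM in BMT (-4.79 ± 0.51, adjusted p = 0.00232). Inmt, an amine methyltransferase, measured 347, 411 and 481 CPM in BM and 23.6, 10.1 and 33.4 CPM in BMT (-4.21 ± 0.43, adjusted p = 0.00212). Prom1, a membrane protein known as CD133, measured 44.4, 26.6 and 29.1 CPM in BM and 2.45, 1.11 and 5.41 CPM in BMT (-3.49 ± 0.50, adjusted p = 0.00584). In each of the 3 all BMT livers were below all BM livers. Large rises in no list included Mep1a, a metalloprotease subunit, at 0.446, 0.618 and 0.569 CPM in BM and 29.5, 13.9 and 6.22 CPM in BMT. Myom3, a sarcomere protein, measured 0.179, 0.618 and 0.975 CPM in BM and 27.5, 14.4 and 12.3 CPM in BMT. Spn, the leukocyte surface protein CD43, measured 0.312, 0.485 and 0.731 CPM in BM and 16.3, 13.9 and 10.4 CPM in BMT. Mep1a, Myom3 and Spn passed the filter only through BMT, so their rises are a description and no fold is given. Within the BMT group Mep1a and Myom3 were highest in replicate 1.

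Few regulators of hepatocyte identity were called. Of 46 transcription factors edgeR called 2 higher and none lower (3 lower at an unadjusted p under 0.05), 1 rise recurrent, with a median of 0.06 that ran from -0.11 to 0.14 over the alternatives. Falls numbered 4 without BM replicate 3, 2 under total counts and 2 with DESeq2. Rises numbered 1 with BMT replicate 1, BMT replicate 2 or BMT replicate 3 left out and 4 without BM replicate 3. Hnf4a measured 585, 636 and 577 CPM in BM and 688, 773 and 552 CPM in BMT (0.16 ± 0.17, adjusted p = 0.594). Cebpa, which drives the differentiated state, measured 210, 295 and 270 CPM in BM and 193, 171 and 243 CPM in BMT (-0.35 ± 0.19, adjusted p = 0.291). Both overlapped. The recurrent rise was Cebpd, a C/EBP factor of the acute phase, at 1.12, 2.03 and 1.38 CPM in BM and 6.84, 8.69 and 4.98 CPM in BMT (2.18 ± 0.31, adjusted p = 0.00559). Cebpb, its relative, measured 8.35, 14.3 and 8.74 CPM in BM and 18.3, 17 and 18.7 CPM in BMT, higher in each BMT library yet short of the threshold (0.79 ± 0.22, adjusted p = 0.0579). The nuclear receptors Ppara, Nr1i2, Nr1i3 and Nr1h4, which switch on fat oxidation, drug metabolism and bile acid genes, had log2 fold changes of -0.72 ± 0.20, -0.26 ± 0.14, 0.34 ± 0.19 and 0.41 ± 0.20 (adjusted p = 0.0636, 0.298, 0.299 and 0.253).

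**Figure D4:**
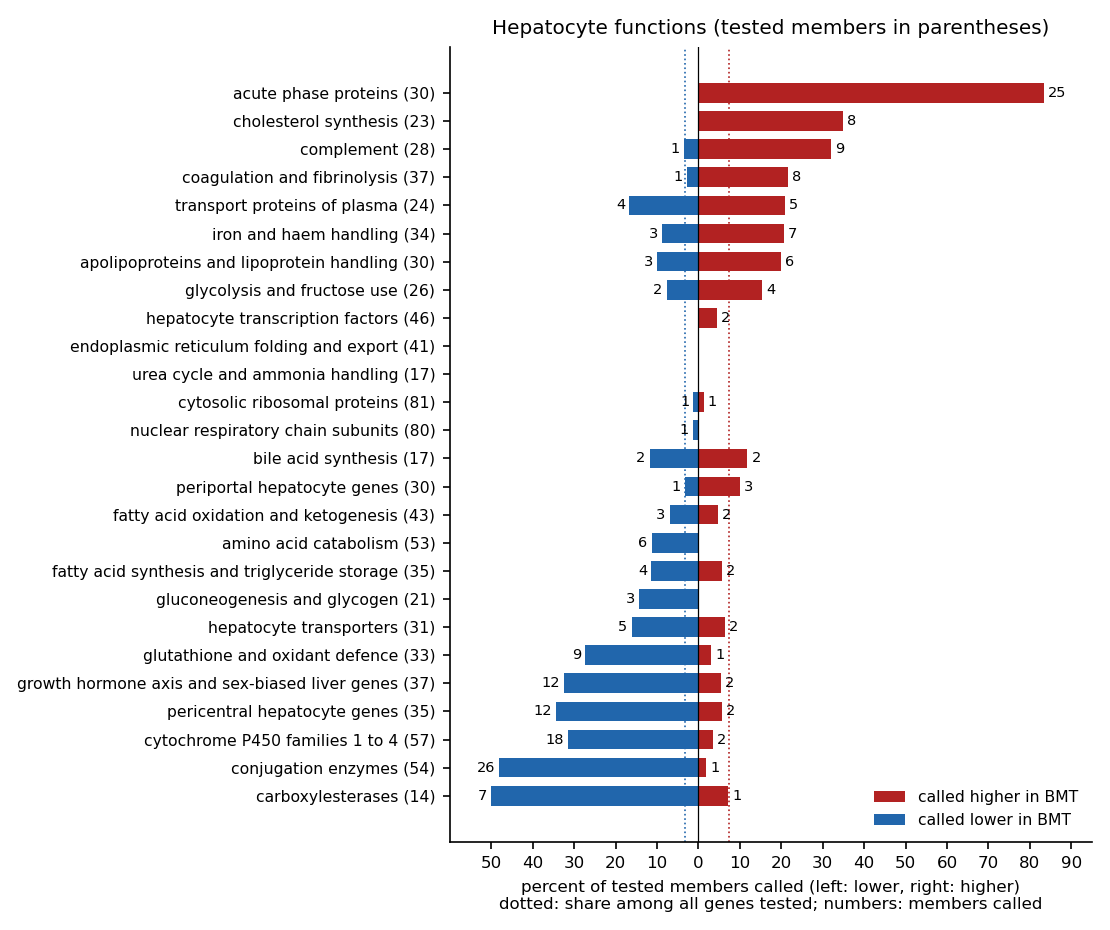
Percent of the tested members of 26 lists called lower (left) and higher (right) in BMT, with the number called beside each bar and dotted lines at the shares over all genes (3.35 and 7.46%). Acute phase genes reach 83.3% called higher and carboxylesterases 50% called lower, while the urea cycle and folding lists have no call.

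Interleukin 6 acts on hepatocytes through its receptor, the shared chain gp130 and STAT3, and Socs3 is the feedback inhibitor. Of 28 genes of this pathway 6 rose and 2 fell, 4 rises recurrently, with a median of 0.44. Falls numbered 0 with BM replicate 2, BMT replicate 1 or BMT replicate 2 left out and 1 without BM replicate 1 or BMT replicate 3. Socs3 measured 8.39, 8.43 and 5.32 CPM in BM and 18.2, 27.2 and 24.1 CPM in BMT (1.65 ± 0.23, adjusted p = 0.00539). Pim1, a kinase induced by STAT proteins, measured 8.12, 9.53 and 8.57 CPM in BM and 15.7, 18.7 and 15.1 CPM in BMT (0.92 ± 0.15, adjusted p = 0.00816). Neither overlapped between groups. Il22ra1, the receptor chain for interleukin 22, measured 3.35, 4.37 and 5 CPM in BM and 11, 14.1 and 11.2 CPM in BMT (1.51 ± 0.20, adjusted p = 0.00435). Il6ra measured 60.6, 73 and 36.4 CPM in BM and 124, 134 and 105 CPM in BMT (1.09 ± 0.25, adjusted p = 0.0308), and its call held only without BM replicate 2 or BM replicate 3. Stat3 and Il6st, which encodes gp130, were higher in every BMT library by 0.41 ± 0.16 and 0.43 ± 0.14 without passing the threshold (adjusted p = 0.145 and 0.0991). Of 50 genes of NF-kB and innate sensing 7 rose and 1 fell, 4 rises recurrently. Across the left-out libraries, rises numbered 4 without BMT replicate 1 or BMT replicate 2 and 20 without BM replicate 3, and 12 with DESeq2. Nfkbiz, an NF-kB cofactor, measured 7.36, 8.82 and 11.7 CPM in BM and 26.3, 27.1 and 27.2 CPM in BMT (1.53 ± 0.18, adjusted p = 0.00319). Among 26 secreted hormones, their receptors and stress-induced ligands 3 rose, all recurrently. Il1rn, the interleukin 1 receptor antagonist, measured 5.98, 2.51 and 3.09 CPM in BM and 27.3, 48.7 and 18.6 CPM in BMT (3.03 ± 0.44, adjusted p = 0.00623). Lepr, the leptin receptor, measured 8.08, 6.93 and 4.96 CPM in BM and 30, 21.7 and 14.6 CPM in BMT (1.73 ± 0.29, adjusted p = 0.0102). Gpnmb, a membrane glycoprotein of macrophages, measured 2.54, 2.82 and 2.32 CPM in BM and 7.81, 9.46 and 7.07 CPM in BMT (1.66 ± 0.19, adjusted p = 0.00306). Of 22 clock genes 1 rose and 1 fell, neither recurrently. Arntl, Nr1d1 and Dbp were not called (2.23 ± 0.74, -1.14 ± 0.37 and -1.48 ± 0.57, adjusted p = 0.0983, 0.0925 and 0.149). Nr1d1 and Dbp were lower in every BMT library than in any BM library without passing the threshold, and Arntl overlapped.

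Interferon genes differed widely among the BM livers. The summed level of 32 interferon gamma genes was 3250, 9486 and 15810 CPM in the BM livers and 4574, 5276 and 7198 CPM in the BMT livers, so that the BMT range lay inside the BM range. Of 31 tested, edgeR and DESeq2 called none (1 lower and none higher at an unadjusted p under 0.05), while 10 fell without BM replicate 1 and 5 rose without BM replicate 3. The median log2 fold change was -0.54, from -1.01 to 0.35 over the alternatives. Of 30 type I interferon genes 1 fell (10 without BM replicate 1, and 6 with the replicate number as a term). It was Rsad2, the antiviral protein viperin, at 8.03, 12 and 14.9 CPM in BM and 3.7, 3.72 and 3.23 CPM in BMT (-1.71 ± 0.24, adjusted p = 0.00575). For MHC class II presentation the sums were 137, 288 and 1834 CPM in BM and 1567, 1755 and 1521 CPM in BMT. BM replicate 3 alone stood at the BMT level, and 1 of 10 genes rose with it and 9 without it. The recurrent rise was Ctss, the protease that trims the invariant chain, at 20.9, 30.7 and 37.4 CPM in BM and 82.1, 74.6 and 75.6 CPM in BMT (1.38 ± 0.21, adjusted p = 0.00682).

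**Figure D5:**
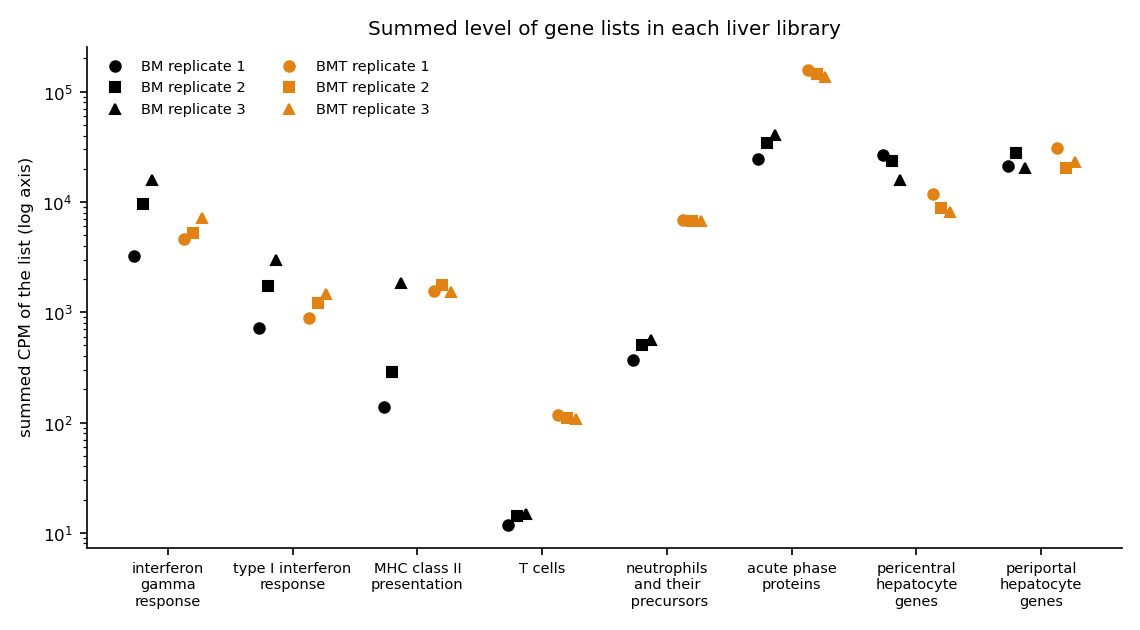
Summed CPM of 8 gene lists in each of the 6 liver libraries on a log axis (black, BM; orange, BMT; symbols for replicates 1 to 3). T cell, neutrophil and acute phase sums were higher in every BMT library and pericentral sums lower, whereas for interferon gamma genes the BMT range of 4574 to 7198 CPM lay inside the BM range of 3250 to 15810 CPM.

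Transcripts of several other cell types moved with the same contrast, and their part in the hepatocyte results was not tested. Many of these genes reach the filter only through their BMT level. In 11 of 25 tested T cell genes, 5 of 23 cytotoxic genes and 7 of 25 neutrophil genes the BM mean lay under 3 counts. The cutoff of the filter is higher than 3 counts, so further genes of these lists passed only through BMT. The numbers of rises in these lists are therefore a description. Of the T cell genes 23 rose, 18 recurrently, and their summed level was 11.8 to 14.9 CPM in BM and 107 to 116 CPM in BMT. All 25 tested of 31 listed neutrophil genes rose, 17 recurrently, with sums of 368 to 561 CPM and 6718 to 6856 CPM, most of which came from Lcn2 and Wfdc21. Lcn2 measured 18.9, 82 and 266 CPM in BM and 5080, 5695 and 5965 CPM in BMT. Wfdc21 measured 321, 395 and 277 CPM in BM and 766, 654 and 559 CPM in BMT, and hepatocytes can express both. Among 23 cytotoxic and effector genes 19 rose, 16 recurrently. Gzma, a granzyme, measured 0.625, 1.5 and 1.5 CPM in BM and 12.5, 10.4 and 12.7 CPM in BMT (3.28 ± 0.31, adjusted p = 0.00183). Gzmb, another granzyme, measured 0.536, 1.9 and 3.66 CPM in BM and 25, 20.8 and 27.4 CPM in BMT (3.57 ± 0.51, adjusted p = 0.00577). Of 27 monocyte and macrophage genes 15 rose, 8 recurrently. Rises numbered 8 without BM replicate 2 and 9 without BMT replicate 1 or BMT replicate 2. Ly6c2, listed here for inflammatory monocytes, measured 0.491, 1.1 and 1.1 CPM in BM and 28.9, 12.5 and 9.78 CPM in BMT (4.23 ± 0.51, adjusted p = 0.00326). Which cells carried Ly6c2 was not tested. The chemokine Ccl6 measured 8.39, 14.2 and 10.3 CPM in BM and 102, 128 and 131 CPM in BMT (3.46 ± 0.22, adjusted p = 0.00118). Of 13 red cell genes 5 fell, 1 recurrently, with sums of 163 to 199 CPM in BM and 80.8 to 112 CPM in BMT. Falls came to 1 without BMT replicate 2 and 2 without BM replicate 2. Some cell types changed less. Of 16 Kupffer cell genes 3 rose, 2 recurrently, with a median log2 fold change of 0.25. Dendritic cell genes rose in 2 of 8 cases, 1 recurrently (median 0.1), and B and plasma cell genes in 1 of 6, not recurrently (median 0.28). Of 14 bile duct genes 1 rose and 1 fell, neither recurrently (median 0.23).

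Structural cells showed smaller changes. Of 36 endothelial genes 7 rose and none fell by edgeR or DESeq2 (2 lower at an unadjusted p under 0.05), 1 recurrently. Rises came to 1 without BMT replicate 2, 2 without BM replicate 2, 4 without BMT replicate 1 and 11 without BM replicate 3. Stab1, a scavenger receptor of sinusoidal endothelium, measured 25.5, 23 and 31.1 CPM in BM and 45, 55.4 and 53.3 CPM in BMT (0.95 ± 0.15, adjusted p = 0.0088). This rise was not called in the fit of all 18 libraries (adjusted p = 0.231). Of 43 genes of stellate cells and matrix 12 rose and 2 fell, 4 rises recurrently. The rises numbered 4 without BM replicate 2, 5 without BMT replicate 2, 6 without BMT replicate 3 and 7 without BMT replicate 1. The falls numbered 0 with BMT replicate 1, BMT replicate 2 or BMT replicate 3 left out and 1 without BM replicate 2. Col4a1, a collagen of basement membranes, measured 17.3, 14.9 and 24.6 CPM in BM and 42.8, 55.1 and 56.2 CPM in BMT (1.44 ± 0.21, adjusted p = 0.00623). Its partner chain Col4a2 measured 13.3, 13.5 and 19.8 CPM in BM and 35.4, 35.5 and 43 CPM in BMT (1.29 ± 0.19, adjusted p = 0.00623). Ccn2, a matrix protein induced by TGF beta, measured 2.1, 3.09 and 2.4 CPM in BM and 10.4, 9.55 and 7.26 CPM in BMT (1.84 ± 0.23, adjusted p = 0.00348). Fn1, fibronectin, which hepatocytes secrete into plasma, measured 1127, 1473 and 1156 CPM in BM and 4273, 4069 and 2753 CPM in BMT (1.56 ± 0.24, adjusted p = 0.0071).

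Proliferation genes rose in 23 of 39 tested cases with no fall by edgeR (1 lower by DESeq2 and at an unadjusted p under 0.05), 10 recurrently, and a median of 1.85. Across the left-out libraries, rises numbered 10 without BMT replicate 2, 12 without BMT replicate 1 and 13 without BM replicate 2, and 15 on 1 lane. Mki67, the antigen of cycling cells, measured 2.72, 2.16 and 3.09 CPM in BM and 21.5, 15.8 and 14.1 CPM in BMT (2.69 ± 0.23, adjusted p = 0.00153). Top2a, which untangles replicated DNA, measured 2.45, 2.38 and 2.44 CPM in BM and 14.8, 9.8 and 10.6 CPM in BMT (2.27 ± 0.21, adjusted p = 0.00174). The cells that carried these transcripts cannot be read from whole tissue. Of 36 p53 targets and cell death genes 6 fell and 2 rose, 2 falls recurrently. With libraries left out, falls numbered 2 without BMT replicate 3 and 3 without BMT replicate 2, and 3 on 1 lane. Eda2r, a p53 target of the death receptor family, measured 10.4, 6.22 and 6.09 CPM in BM and 2.13, 2.78 and 2.42 CPM in BMT (-1.63 ± 0.27, adjusted p = 0.00931). Cdkn1a, the p53-induced cell cycle inhibitor, measured 61.7, 41.2 and 61 CPM in BM and 81.1, 139 and 53.4 CPM in BMT, with overlap (0.74 ± 0.34, adjusted p = 0.211).

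Calls were few among genes of translation and nuclear genes of the respiratory chain, but not among those of the mitochondrial chromosome. Cytosolic ribosomal proteins had 1 rise and 1 fall among 81, and endoplasmic reticulum folding and export had none among 41 by edgeR (4 higher and none lower at an unadjusted p under 0.05, 7 rises without BM replicate 3, 1 by DESeq2). Of 30 amino acid response genes driven by ATF4 8 rose and 1 fell, 2 rises recurrently. Rises numbered 2 without BMT replicate 2 and 5 without BM replicate 2 or BMT replicate 1, and 4 on 1 lane. Of 80 nuclear subunits of the respiratory chain 1 fell. A log2 fold change below 0 was found in 76, against 7383 of all 14134 genes tested. All BMT values were under all BM values in 43, against 2194 of all genes, and the median was -0.25. The median stayed between -0.43 and -0.20 over the alternatives, while the number of falls went from 1 to 24 under total counts, 10 without BM replicate 3 and 8 with DESeq2. Of the 13 protein genes of the mitochondrial chromosome 3 fell (23.1%, against 3.35% of all genes), none recurrently. All 13 had a log2 fold change below 0, all BMT values were under all BM values in 9, and the median was -0.68. These counts too are read against those of all genes given above. Falls numbered 0 without BMT replicate 2 and 11 without BM replicate 3, 9 under total counts and 7 with DESeq2.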

How the data were processed

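Sequencing of polyA-selected RNA from bulk liver was analysed in 6 libraries, 3 per group by their titles. A stranded kit, 8 PCR cycles and pairs of 100 bp reads were used on 500 ng RNA per sample (RIN 7.2 to 10), per the labels' protocols. The values the authors deposited are raw counts of 53379 genes, as whole numbers. Per the submitters' processing notes, the tools were STAR 2.7.0e, featureCounts 1.6.3 and FastQC 0.11.9, with GRCm38.p5 as the build. For the annotation release and the strand setting: not given in the sources used here. The reference is C57BL/6J and the mice were BALB/cJ, so divergent genes can be undercounted, and near-identical copies, overlapping genes and antisense genes can have shared or lost reads.

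Names were matched for 53274 IDs (GENCODE M21), and unmatched IDs held 0.00147% of liver counts. Counts were fitted with edgeR 4.0.16 in R 4.3.3 (expression filter by group, TMM scaling, two-sided quasi-likelihood F-test, Benjamini-Hochberg adjusted p of 0.05). A standard error is the size of the log2 fold change over the square root of F. The 17 alternatives include DESeq2 1.42.0 and each library left out. In simulated counts of 13904 genes for this comparison, 200 genes were changed. Of those changed 1.5-, 2- and 4-fold, 2.99, 29.9 and 86.4% were recovered, with 5 false calls. No libraries of a group were duplicates (chi-square per degree of freedom 36.5 to 187).

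The comparison and the 56 lists (1665 genes, 1424 tested, 1 name unmatched) were chosen with earlier results of these data known. Genes named were the 12 largest recurrent rises and falls with a mean of at least 5 CPM, the recurrent members of each list with the smallest p (up to 4), and a fixed set of hepatocyte genes whatever their result. Not all of these are printed, and other names were chosen after their values were seen. Some listed genes are counted but not reported here by name. Promoter windows, from RefSeq, were matched by symbol for 95 of 122 such genes.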

Additional observations from a re-analysis of the deposited data

How the results depend on the processing

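The counts of genes called in liver, 1055 higher and 473 lower, changed with the setting as follows. Falls numbered 1183 under scaling by total counts and 718 with DESeq2, against 812 and 1390 rises; the median log2 fold change of all genes moved by -0.18 under total counts. With upper-quartile factors, RLE factors, other low-count filters, all 18 libraries in 1 fit, the lane as covariate or no mitochondrial genes, both counts stayed within 1.5 times. Leaving out 1 library gave between 459 and 1556 rises and between 110 and 1061 falls, lowest without BMT replicate 2 and highest without BM replicate 3; the cause was not tested. BM replicate 3 and BMT replicate 2 were on 1 lane, and the 4 libraries of the other lane alone gave 857 rises and 378 falls. In each of the 17 alternatives, every gene called both there and in the reported fit had the same direction, and no call of a named gene reversed. Among genes named above, Adh1 and Cyp2c29 lost their call in the fit of all 18 libraries, and Adh1, Cyp2a5, Cyp2b13, Sult1e1 and Wfdc21 on 1 lane alone (Adh1 also with the lane as covariate). DESeq2 called Arg1, Arntl, Cebpb, Nr1d1 and Ppara, which edgeR did not call. The titles give replicate numbers to both groups; deviations of same-numbered libraries correlated at 0.18, -0.04 and 0.34, and not every library correlated best with its own number, so the numbers were not taken as pairs. With the replicate block 1125 genes were called higher and 505 lower, of which 1350 were among the 1528 calls without it. With 3 libraries per group, most simulated 2-fold changes were missed. The simulation changed 200 genes, fewer than the 1528 called here, so recovery in the data may differ. A gene not called is not shown to be equal. Depth limits genes below about 0.142 CPM, the level of 3 counts.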
